A study of Homo sapiens with 3 samples.

Results

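The histone genes described here are the 91 protein-coding genes of the RefSeq annotation of GRCh38, out of 20050, whose symbols start with H1-, H2A, H2B, H3C, H4C, H3-3, H3-4 or H3-5. The rule uses the symbol and no measured value. Of these, 68 are replication-dependent genes (H1-1 to H1-5 and the numbered H2AC, H2BC, H3C and H4C genes) and 23 are variant genes, a class that here holds every other member, from H3-3A and H2AZ1 to testis types such as H2BW1. RNA bound by a HaloTag fusion had been sequenced by GoldCLIP, a crosslinking method that captures the fusion on beads through a covalent bond with the tag and so dispenses with a gel. The cells were HCT116, an established human colorectal carcinoma line, and the series held 3 samples with 1 library each: HaloTag, RPL22-HaloTag and RPL22L1-HaloTag. All 3 share the parental line, the medium and the tag. Whether a fusion replaced or was added to the cell's own protein, and whether a line is 1 clone, is not given in the sources used here. The HaloTag library was not analysed here, and no value below is set against it.

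Replication-dependent histone genes supply the core histones H2A, H2B, H3 and H4 and the linker histone H1 in S phase, when new DNA is packed into nucleosomes. Their mRNAs have no introns and, alone among animal mRNAs, end in a conserved stem-loop in place of a poly(A) tail; the stem-loop binding protein SLBP holds that structure through processing, translation and decay. Variant histone mRNAs such as those of H3.3 and H2A.Z are mostly polyadenylated and are made outside S phase too. RPL22 belongs to the large ribosomal subunit and is known to bind stem-loops of viral and cellular RNA, and RPL22L1 is its paralog.

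The deposited values were peaks, each with a summit (the base of its maximum) and a score given by the authors, in 1 list per library. There were 154000 peaks in the list of RPL22-HaloTag (the RPL22 list) and 254413 in that of RPL22L1-HaloTag (the RPL22L1 list). The number of reads behind either list is unknown. No strand was given for a peak, so a peak names the gene it lies in but not the strand of the RNA. Scores were used only to rank peaks within their own list. A rank is given below as a percent of the list, so that a low value is a high score. With 1 library per fusion there is no test and no p-value. Bounds in parentheses after a share are 95% limits by the exact Clopper-Pearson method, which reflect counting error alone. Of 9 colon epithelial genes, 6 had a summit in both lists, including EPCAM and KRT8, while CDX1, LGR5 and KRT20 were at 0. Among 4 genes of other cell types, the leukocyte gene PTPRC was at 0 in both lists, the hepatocyte gene ALB had 0 and 1 summits, and COL1A1 and PECAM1 had summits in both.

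The stem-loop itself could be read at 1 gene. H4C16, a gene for histone H4 at chr12:14770720-14771131 on the minus strand, is the only replication-dependent member outside chromosomes 6 and 1. Its last 30 bases (chr12:14770720-14770749, minus strand) lie inside the promoter window of a neighbouring gene in the RefSeq table of GRCh38.p14 and are shown because both lists had their only H4C16 peak on them. Capitals mark a hairpin of 6 paired bases on each side of a loop of 4 bases, found by script as perfect Watson-Crick pairs.

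H4C16 3′ end: gactccaaaaGGCCCTTTTCAGGGCCccca

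The H4C16 peak of the RPL22 list had its summit at position 14770737, and that of the RPL22L1 list at position 14770739. Both summits fell within the hairpin, which spans 14770724 to 14770739, that is 19 to 4 bases before the last base of the gene. The RPL22 peak covered 14770721 to 14770768 with a score of 139, and the RPL22L1 peak covered 14770723 to 14770754 with a score of 368. A hairpin of this form was present in 498 of 35097 windows made of the first 50 transcribed bases of annotated genes, or 1.42%, and in 0 of 90 such windows at histone genes. The other replication-dependent gene whose annotated 3′ end could be read, H2BC18, held none in its last 50 bases, but its bounds span 29682 bases, so that this end need not be the end of a short histone mRNA. The match is a description of the letters in this window. The map of the H4C16 end shows both peaks over the hairpin.

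**Figure D1:**
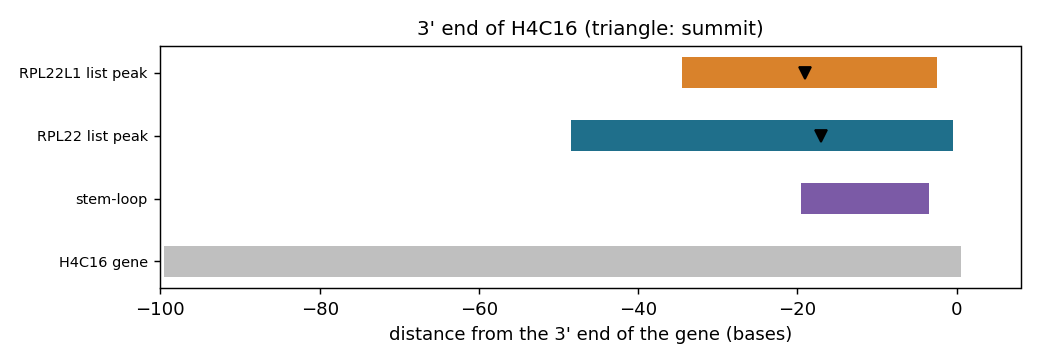
Map of the last 100 bases of H4C16, with distance from the 3′ end of the gene in bases on the x axis and, from the bottom up, the gene, the hairpin found by script, the RPL22 peak and the RPL22L1 peak, with a triangle at each summit. Both summits, 17 and 19 bases before the end, lie within the hairpin.

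Histone genes held summits despite their small size. In the RPL22 list 35 of 91 had at least 1 summit, or 38.5% (28.4 to 49.2), where 68.3% of all protein-coding genes did. In the RPL22L1 list 45 of 91 did, or 49.5% (38.8 to 60.1), against 69.8% of all protein-coding genes. The same 30 had a summit in both lists, 33.0% of the members against 63.1% of all protein-coding genes. A further 5 had one in the RPL22 list alone and 15 in the RPL22L1 list alone, and 41 were at 0 in both. The median length of the members is 511 bases and that of other protein-coding genes 24272 bases, so these shares do not compare genes of like size.

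Among genes under 1000 bases the order was the other way. Of 60 replication-dependent genes of that size, 21 had an RPL22 summit (35.0%, 23.1 to 48.4) and 28 an RPL22L1 summit (46.7%, 33.7 to 60.0). Of 467 other protein-coding genes of that size, 22 (4.71%, 2.98 to 7.05) and 26 (5.57%, 3.67 to 8.05) did. Those 467 have a median length of 835 bases, so they are longer on the whole than the replication-dependent genes. With the members included, 8.04% and 10.1% of all protein-coding genes under 1000 bases had a summit. The intervals of the replication-dependent genes and of the other short genes did not overlap in either list. RNA abundance was not measured in the files used, and its part in these shares was not tested. The 8 variant genes under 1000 bases, among them the testis genes H2AL3, H2AB1 and H2AB2, were all at 0 in both lists. That count allows a share of up to 37.5%.

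**Figure D2:**
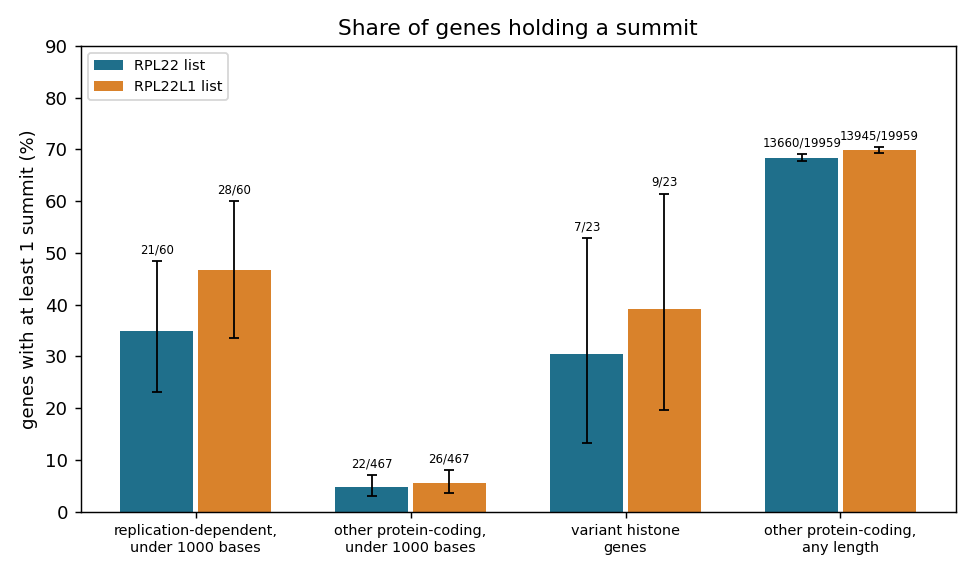
Percent of genes with at least 1 summit (y axis) in 4 sets of genes, in the RPL22 list (blue) and the RPL22L1 list (orange); bars start at 0, whiskers are exact 95% binomial intervals for counting error, and the number of genes stands above each bar. Replication-dependent histone genes under 1000 bases reached 35.0% and 46.7%, and other protein-coding genes of that size 4.71% and 5.57%.

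All 5 histone families were represented. Of 10 linker H1 genes, 4 had a summit in each list, and they were the same 4. H2A genes had 11 and 15 of 26, H2B genes 8 and 10 of 23, H3 genes 5 and 7 of 17, and H4 genes 7 and 9 of 15, in the RPL22 and RPL22L1 lists in turn. These intervals overlap widely: the share of H3 genes in the RPL22 list was 29.4% (10.3 to 56.0) and that of H4 genes 46.7% (21.3 to 73.4). Replication-dependent genes had summits in 28 and 36 of 68, and variants in 7 and 9 of 23. The 7 variants of the RPL22 list were also in the RPL22L1 list.

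Across the 91 genes the number of summits in the lists correlated with a Spearman's rho of 0.69. Among the 30 genes with summits in both, the rank of the best peak correlated with a rho of 0.40. Genes are not independent replicates and both lists share the genes' lengths and sequences, so these values describe the lists only. Gene length had a rho of 0.24 with the number of RPL22 summits and 0.29 with that of RPL22L1 summits.

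**Figure D3:**
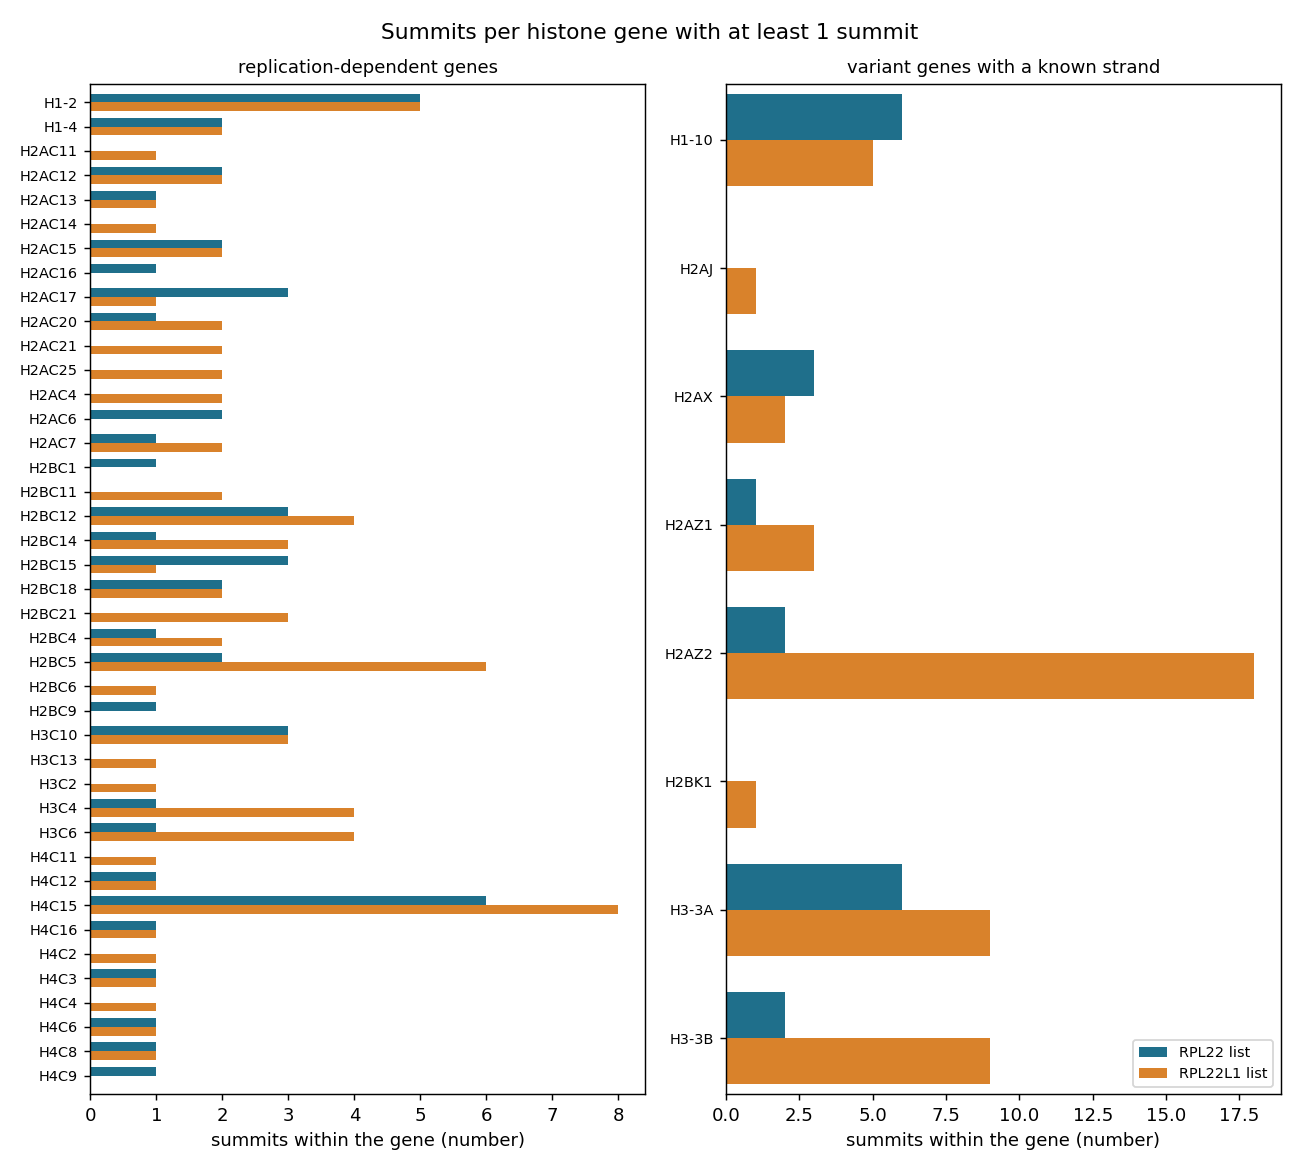
Number of summits (x axis) in histone genes with at least 1 summit, in the RPL22 list (blue) and the RPL22L1 list (orange), with replication-dependent genes on the left and variant genes with a known strand on the right. Most genes held 1 to 3 summits; among replication-dependent genes H4C15 held the most, with 6 and 8, and among the variants shown H2AZ2 held 2 and 18.

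Within replication-dependent genes, part of the summits lay at the very end. The 3′ end was known for 63 of the 68, those with a strand in the promoter table. Of the RPL22 summits in them, 13 of 46 lay within 50 bases of the last base (28.3%, 16.0 to 43.5), and of the RPL22L1 summits 15 of 73 (20.5%, 12 to 31.6). In other protein-coding genes under 1000 bases the shares were 1 of 22, or 4.55%, and 1 of 25, or 4%. The intervals of those small sets, 0.115 to 22.8% and 0.101 to 20.4%, overlap those of the histone genes. In other genes under 3000 bases, which gave more summits, the shares were 2.55% (1.52 to 4.01) and 5.13% (3.73 to 6.84), and over all protein-coding genes 0.172% and 0.294%. Replication-dependent genes under 1000 bases had 13 of 32 (40.6%, 23.7 to 59.4) and 14 of 42 (33.3%, 19.6 to 49.5). The window of 50 bases was set after the positions had been seen. It takes up more of a replication-dependent gene, of median length 494 bases, than of a longer gene. The shares of genes under 3000 bases and of all genes are therefore not those of genes of like size. With the gene cut into 3 equal parts, which was the position measure set out first, the last part held 27 of 46 RPL22 summits (58.7%, 43.2 to 73.0) and 34 of 73 RPL22L1 summits (46.6%, 34.8 to 58.6), against 39.4% and 41.4% over all protein-coding genes. The first part held 11 of 46 (23.9%, 12.6 to 38.8) and 31 of 73 (42.5%, 31 to 54.6), against 31.3% and 29.2%, so that in the RPL22L1 list the first part stood further above all genes than the last did. Of those 31 summits, 19 lay in genes of 1000 bases or more. In genes under 1000 bases the first part held 7 of 32 and 12 of 42 summits, and the last part 19 of 32 (59.4%, 40.6 to 76.3) and 23 of 42 (54.8%, 38.7 to 70.2). In other protein-coding genes under 1000 bases the last part held 4 of 22 (18.2%, 5.19 to 40.3) and 12 of 25 (48%, 27.8 to 68.7). The RPL22L1 intervals overlap widely, and the RPL22 intervals lie just apart. In other genes under 3000 bases the last part held 32.9% and 42.9%.

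By the choice of the window, the end summits lie within 50 bases of the last base. They lay 12 to 40 bases before the last base in the RPL22 list, with a median of 17, and 9 to 31 bases before it in the RPL22L1 list, with a median of 15. In the stretch taken by the H4C16 hairpin, 4 to 19 bases before the end, lay 7 of the 13 and 9 of the 15. Each count includes the summit of H4C16 itself, which was bound to fall there. The share to be found there without a hairpin was not computed. The end peaks had median widths of 35 and 32 bases, wider than that stretch, and the hairpin was found only at H4C16. Whether the summits follow a hairpin or the end of the RNA was not tested. Just past the annotated end, within 50 bases, there was 1 summit in the RPL22L1 list, at H2BC5, and 0 in the RPL22 list. Variant genes had 0 of 20 summits within 50 bases of the 3′ end in the RPL22 list, which allows a share of up to 15%, and 2 of 48 in the RPL22L1 list, at H1-10 and H3-3B.

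**Figure D4:**
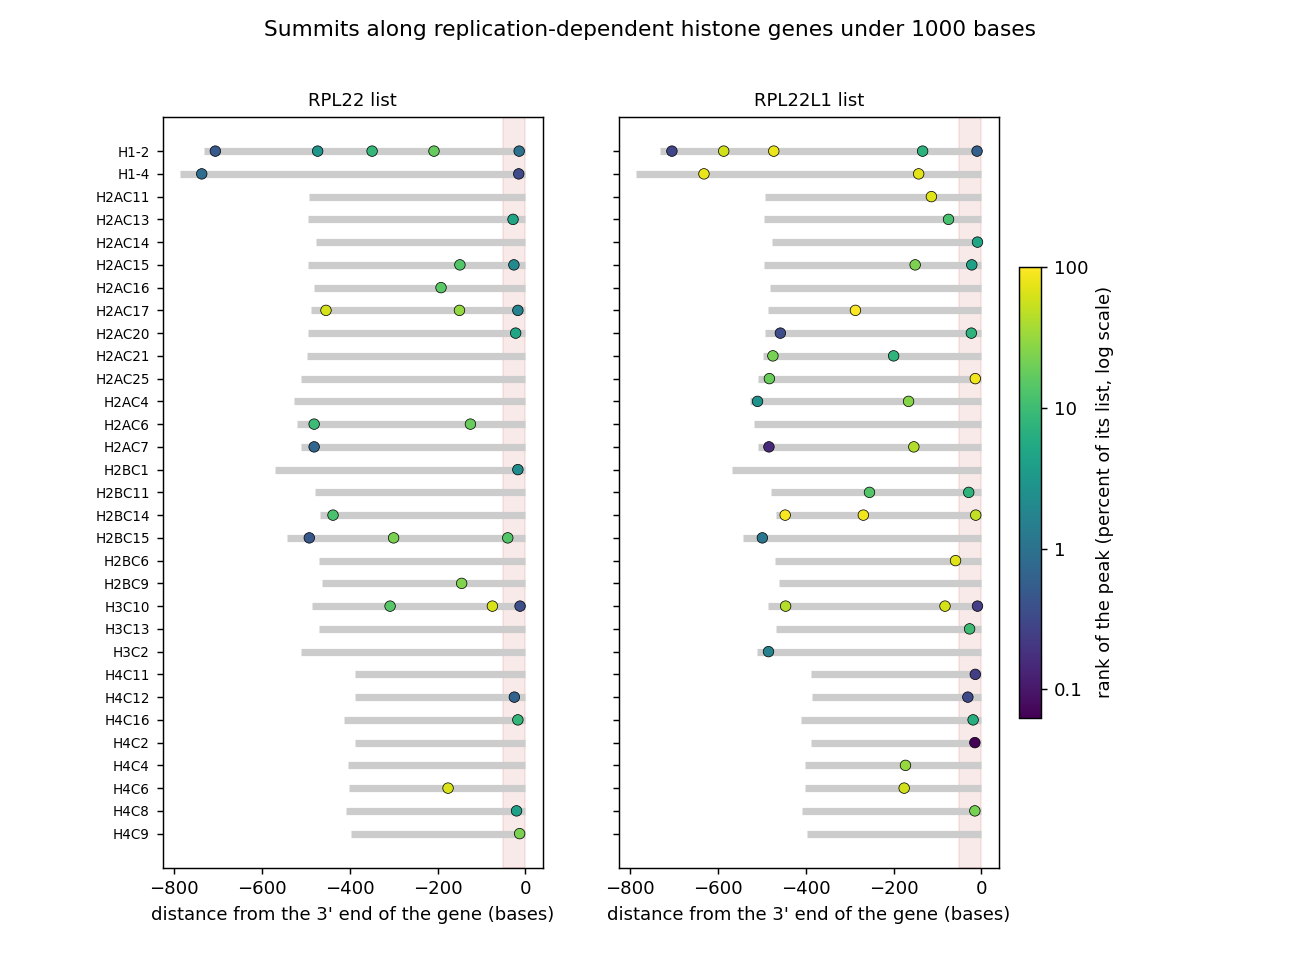
Summits along the replication-dependent histone genes under 1000 bases with a known strand and a summit in either list, with distance from the 3′ end of the gene in bases on the x axis, grey bars for the genes, a shaded band for the last 50 bases, and colour for the rank of the peak as a percent of its list on a log scale. The last 50 bases hold 13 of 32 RPL22 summits and 14 of 42 RPL22L1 summits, and a further group sits near the 5′ ends.

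A total of 21 genes had such an end summit in either list, of all 4 core families and H1. In 7 of them, H1-2, H2AC15, H2AC20, H3C10, H4C8, H4C12 and H4C16, both lists had one. The peaks of the lists overlapped at each of the 7, with summits 1 to 6 bases apart. That is 7 of 13 genes with an RPL22 end summit, or 7 of 15 with an RPL22L1 end summit. In other protein-coding genes under 3000 bases, 9 of 18 RPL22 and 10 of 43 RPL22L1 peaks at the 3′ end overlapped the other list. The RPL22 share of the histone genes was close to the share in those genes. Over all protein-coding genes 54 of 187 and 67 of 536 such peaks overlapped. An end summit in the RPL22 list alone was found in H1-4, H2AC13, H2AC17, H2BC1, H2BC15 and H4C9, and in the RPL22L1 list alone in H2AC14, H2AC25, H2BC11, H2BC14, H3C4, H3C13, H4C2 and H4C11. H2BC1 overlaps SLC17A1 and H4C9 overlaps H2BC12, so that with no strand the source of their peaks is uncertain. A peak in 1 list alone is not shown to differ between the fusions, since no replicate measured the spread.

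End peaks also scored high. Their median rank was at 2.14% of the RPL22 list (n = 13) and 4.95% of the RPL22L1 list (n = 15). Peaks elsewhere in replication-dependent genes, outside the first and last 50 bases, had median ranks of 23.6% (n = 26) and 58.0% (n = 47). In genes under 1000 bases alone, peaks elsewhere had medians of 17.8% (n = 12) and 58.5% (n = 18). The ranges overlapped: 3′ end peaks reached down to 22.8% and 85.5%, and peaks elsewhere up to 2.98% and 0.284%. The whole lists held 187 and 536 peaks within 50 bases of the 3′ end of a protein-coding gene with a known strand. A strand was known for 15843 of the 20050 protein-coding genes. Among the 5 highest-scoring of the 187, 4 were histone peaks, at H1-4, H3C10, H4C12 and H1-2. Among the 5 highest-scoring of the 536, 4 were again histone peaks, at H4C2, H4C11, H3C10 and H4C12. The 10 highest-scoring of each held 5 histone peaks, and the 20 highest-scoring held 8 in the RPL22 list but 5 in that of RPL22L1.

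Of the linker histone genes, 2 of the 5 replication-dependent ones had summits. H1-2 (chr6:26055740-26056470, minus strand) had 5 summits in each list. Its end peak at 26055741-26055775 scored 515 in the RPL22 list, rank 1483, and its counterpart at 26055741-26055772 scored 1227 in the RPL22L1 list, rank 1437, with summits 14 and 10 bases from the end. A second pair lay 257 bases from the 5′ end with its summits on the same base, at ranks 4583 and 204142. The overlap there joined a peak near the top of the RPL22 list to one near the bottom of the RPL22L1 list. H1-4 (chr6:26156329-26157115, plus strand) held the highest-scoring histone peak of the RPL22 list, at 26157083-26157114 with a score of 1507 and rank 513. That summit lay 15 bases from the 3′ end. In the RPL22L1 list H1-4 had 2 peaks of low rank, 180453 and 201892, neither within 50 bases of an end. H1-1, H1-3 and H1-5 were at 0 in both lists.

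Histone H4 genes held the highest-scoring histone end peaks of the RPL22L1 list, those of H4C2 and H4C11. H4C2 had a peak at chr6:26026894-26026924 with a score of 18515, rank 168 of 254413, the highest of any histone peak in either list by rank. Its summit lay 15 bases from the 3′ end, and H4C2 had no summit in the RPL22 list. H4C11 likewise had 1 RPL22L1 peak, 14 bases from the end, with a score of 2456 and rank 588, and none in the RPL22 list. H4C12 had 1 peak in each list, with scores of 690 (rank 1025) and 1760 (rank 818) and summits 25 and 31 bases from the end. H4C8 had 1 in each, 20 and 15 bases from the end, at ranks 6401 and 55670. H4C3, which has no strand in the promoter table, had 1 peak in each list, with summits 18 and 12 bases from its higher-coordinate end at ranks 657 and 16660. H4C6 differed from these: its summits shared a base 176 bases from the 3′ end, and both peaks were flat and of low rank, 100612 and 149972. Flat peaks are 30 bases wide and have their summit offset at 15, the commonest form, at 64.9% of RPL22 peaks and 77.9% of RPL22L1 peaks. H4 genes encode nearly the same protein from closely similar DNA, and how reads that match several genes were placed is not stated, so the assignment to a single H4 gene is uncertain.

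Among H3 genes, H3C10 (chr6:27810051-27810536, plus strand) had 3 summits in each list. Its RPL22 end peak scored 1342 (rank 556) and its RPL22L1 end peak 2394 (rank 605), 12 and 9 bases from the end. Both of its end peaks began at 27810505. A second overlapping pair, 75 and 83 bases from the end, ranked at 64.2% and 63.1% of the lists. H3C13 had an RPL22L1 peak 27 bases from its end at rank 25796. H3C4 had one 28 bases from its end at rank 9722, and its bounds of 2510 bases enclose H2AC7.

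H2A genes had end summits in 4 cases in each list. H2AC15 showed 2 overlapping pairs: the end pair, 26 and 22 bases from the 3′ end, ranked 3140 and 10596, and a pair 149 and 151 bases from it ranked 20862 and 59025. At H2AC20 the end summits lay 1 base apart, with ranks of 7700 and 18733. H2AC17 had its best peak, rank 2485, 17 bases from the end in the RPL22 list. Its single RPL22L1 peak was flat, at rank 243088, and lay elsewhere in the gene. H2AC12, without a strand in the table, had overlapping peaks whose summits lay 25 and 24 bases from its higher-coordinate end, at ranks 3576 and 840. Of the H2B genes, H2BC1, which overlaps SLC17A1, had a single peak, 17 bases from its end with rank 3288, in the RPL22 list. H2BC15 and H2BC14 had summits at both ends across the lists.

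A second group of peaks, part of them high-scoring, lay at the 5′ ends. Within 50 bases of the first base there were 7 of 46 RPL22 summits (15.2%, 6.34 to 28.9) and 11 of 73 RPL22L1 summits (15.1%, 7.77 to 25.4). Other protein-coding genes under 1000 bases had 4 of 22, or 18.2%, and 2 of 25, or 8%, and the intervals overlap those of the histone genes. In other genes under 3000 bases the shares were 5.67% (4.08 to 7.65) and 2.62% (1.65 to 3.94), and over all protein-coding genes 0.438% and 0.168%. The RPL22L1 interval of the histone genes lies above that of genes under 3000 bases, and the RPL22 intervals overlap. The window of 50 bases takes up more of a replication-dependent gene, of median length 494 bases, than of a longer gene. The comparison with genes under 3000 bases is therefore not one of like size. The median ranks of these histone peaks were 0.846% and 2.64%, but the peaks reached down to 62.5% and 94.3%. No H4 gene was among them. In 4 genes, H1-2, H2AC7, H2BC14 and H2BC15, both lists had one, the peaks overlapped, and the summits lay 1 to 9 bases apart. In other protein-coding genes under 3000 bases 8 of 40 RPL22 and 8 of 22 RPL22L1 peaks at the 5′ end overlapped. Over all protein-coding genes 82 of 475 and 74 of 307 did. The sequences around the summits of H1-2, H2AC7 and H2BC14, and around the only summit of H3C2, show what lies under the 5′ peaks. They were read from the RefSeq promoter table of GRCh38.p14. Each is 30 bases in the direction of the gene, and the capital marks the summit.

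H1-2, RPL22 list, chr6:26056431-26056460, minus strand: tgccacttgtacccGagtttttgattctca

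H2AC7, RPL22 list, chr6:26199250-26199279, minus strand: gtcttcattgcttaAcatcgtttttaagaa

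H2AC7, RPL22L1 list, chr6:26199253-26199282, minus strand: tttgtcttcattgcTtaacatcgtttttaa

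H2BC14, RPL22 list, chr6:27815037-27815066, plus strand: ttccaccatgcctgAaccagtcaaatctgc

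H3C2, RPL22L1 list, chr6:26032059-26032088, minus strand: tgcaggcaagctttTctgtggttttgccat

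None of these 30-base stretches held the hairpin form found at the H4C16 end. The H1-2 summits lay 24 and 25 bases from the 5′ end, with scores of 938 (rank 745) and 1997 (rank 721). H2AC7 had an RPL22 score of 645 (rank 1104) and an RPL22L1 score of 4945 (rank 373), 28 and 25 bases from its 5′ end. The same peaks lie within the bounds of H3C4, which shares that end. H2BC15 had its 5′ summits 49 and 42 bases from the start at ranks 713 and 2873. At H2BC14 the pair was of low rank, 18759 and 240016. H1-4 had a 5′ peak in the RPL22 list alone, at rank 1303, and H2AC20 in the RPL22L1 list alone, at rank 918. H3C2 had its only peak, rank 4113, 25 bases from the 5′ end in the RPL22L1 list.

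**Figure D5:**
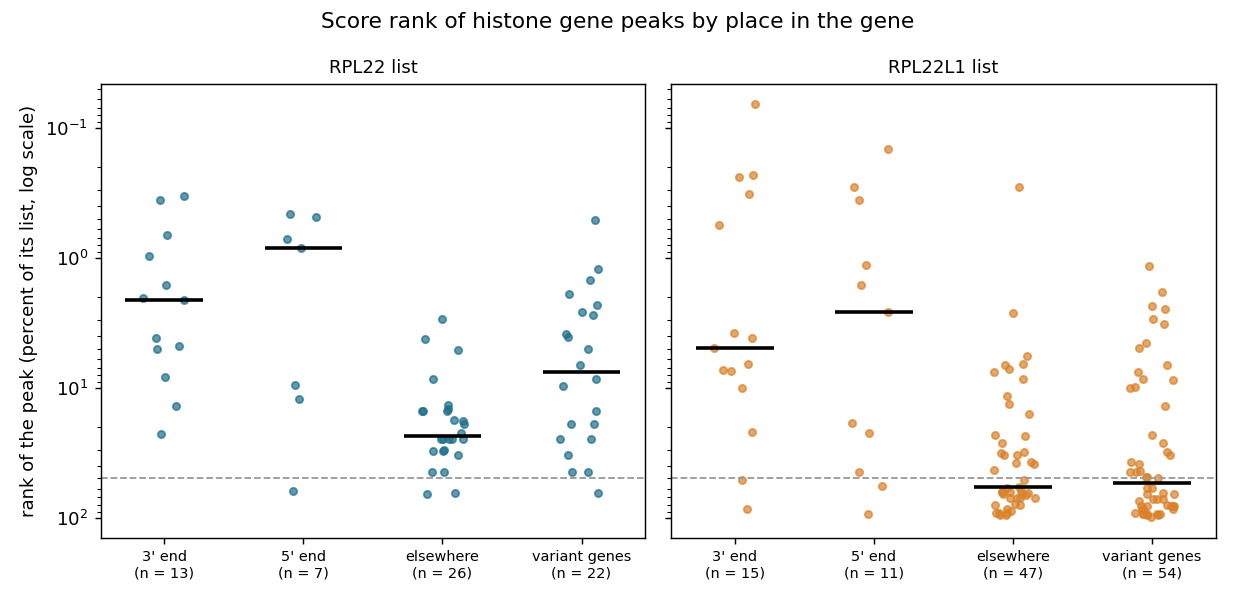
Rank of each histone peak as a percent of its list (y axis, log scale, high scores at the top) by its place in replication-dependent genes with a known strand and for variant genes, in the RPL22 list (left) and the RPL22L1 list (right); horizontal bars are medians and the dashed line is the middle of the list. Medians at the 3′ end (2.14% and 4.95%) and the 5′ end (0.846% and 2.64%) lie above those elsewhere (23.6% and 58.0%). The ranges overlap.

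Part of the histone peaks overlapped between the lists. Of 71 histone peaks in the RPL22 list, 29 overlapped an RPL22L1 peak by at least 1 base, or 40.8% (29.3 to 53.2), against 19.1% of all peaks with a summit in a protein-coding gene. Of 130 in the RPL22L1 list, 29 overlapped, or 22.3% (15.5 to 30.4), against 11.4%. In other protein-coding genes under 3000 bases the shares were 26.4% (23.5 to 29.5) and 22.1% (19.6 to 24.7). The RPL22L1 share of the histone genes was close to theirs, and the intervals of the RPL22 shares just overlapped. The histone genes in this comparison include bounds of up to 29682 bases. The 29 pairs had summits 0 to 36 bases apart with a median of 3, and the 18 pairs in replication-dependent genes were all within 10 bases. Replication-dependent genes under 1000 bases had 17 of 35 (48.6%, 31.4 to 66.0) and 17 of 45 (37.8%, 23.8 to 53.5). Other protein-coding genes under 1000 bases had 5 of 32 (15.6%, 5.28 to 32.8) and 5 of 37 (13.5%, 4.54 to 28.8), and the intervals overlap in both lists. By score, 36 of the 71 and 40 of the 130 were among the top 10% of their list, or 50.7% (38.6 to 62.8) and 30.8% (23 to 39.5), where all peaks in protein-coding genes had 10.8% and 10.2%. Flat peaks were fewer, at 11.3% and 38.5% of histone peaks against 61.5% and 76.4% of all peaks in protein-coding genes. Other protein-coding genes under 3000 bases lay nearer, with 23.6% and 13.8% in the top 10% and 37.3% and 62.1% flat. In other genes under 1000 bases 15.6% (5.28 to 32.8) and 16.2% (6.19 to 32.0) were in the top 10%, and 56.25% and 70.3% were flat. The part of score and peak shape in the overlap was not tested.

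In variant genes the summits lay along longer bounds. H3-3A and H3-3B, which both encode the replacement histone H3.3, had 6 and 9 summits and 2 and 9 summits in the RPL22 and RPL22L1 lists. H3-3A spans 10189 bases, and its overlapping pairs lay 5134 and 5131 bases, and 6744 and 6777 bases, from the 5′ end. The first of these had ranks of 38152 and 2925. H3-3B had 1 pair, with summits 735 and 739 bases from the 5′ end at ranks 2905 and 94899. H2AZ1, which encodes H2A.Z, had 1 RPL22 summit and 3 RPL22L1 summits. The RPL22 summit and 1 of the RPL22L1 summits lay on the same base, 303 bases from the 3′ end, at ranks 1897 and 4636. H2AZ2, which encodes a second form of H2A.Z, had 2 RPL22 summits and 18 RPL22L1 summits, with no overlap. Of those 18, 4 were not flat, and the best ranked 97534.

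The linker variant H1-10 (chr3:129314771-129316286, minus strand) had 6 and 5 summits, with 3 overlapping pairs. It held the highest-scoring variant peak of the RPL22 list, 126 bases from the 5′ end with a score of 885 and rank 788. The overlapping RPL22L1 peak was flat, at rank 149972. H1-10 overlaps H1-10-AS1, and its peaks have no strand, so their source is uncertain. H2AX, the variant phosphorylated at DNA breaks, had 3 and 2 summits; both RPL22L1 peaks overlapped RPL22 peaks, 35 bases from the 5′ end with the summits on the same base and near the 3′ end with the summits 1 base apart. It overlaps DPAGT1, so that with no strand the source of its peaks is uncertain. H2AJ and H2BK1 had 1 summit each, in the RPL22L1 list.

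Of the 41 histone genes at 0 in both lists, 27 are replication-dependent. They include H3C14, H3C15, H2AC18 and H2AC19, copies in the chromosome 1 cluster that are nearly identical in sequence, and H4C14 beside them. How reads from such copies were placed is not stated, so a count of 0 there does not show that their RNA was not bound. The 14 variants at 0 include the oocyte linker H1-8, the testis linkers H1-6 and H1-7, and the testis types H2BW1, H2BW2, H2AB1, H2AB2 and H2AB3. At the other extreme, 8 replication-dependent genes have bounds of 1000 bases or more, up to 29682 for H2BC18. They held 14 of the 49 RPL22 peaks and 31 of the 76 RPL22L1 peaks in replication-dependent genes, 1 overlapping pair among them. H4C15, with 6 and 8 summits over 16753 bases, contains H2AC19 and H3C15, and its summits lay 685 to 5785 bases from its annotated 3′ end. H2BC5 had its best peak in the RPL22L1 list, rank 723, 465 bases from the 5′ end of bounds that span 13229 bases. The gene table gives no transcripts or exons, so whether the annotated 3′ end of these long genes is that of a short histone mRNA could not be read from it. This applies also to H3C4, which gave 1 of the 15 RPL22L1 end summits.

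Genes that act on histone mRNA had summits throughout. All 14 genes of the list for histone mRNA transcription, processing and decay had summits in both lists, with medians of 11 and 22 per gene. SLBP, the stem-loop binding protein, had 6 and 19 summits, with its best peaks at 9.57% and 3.11% of the lists. LSM10 and LSM11, of the U7 snRNP that directs the cleavage of the 3′ end, had 4 and 2 and 9 and 8 summits. ERI1, an exonuclease that trims the stem-loop, had 12 and 45, and NPAT, which activates histone gene transcription, had 22 and 34. Of 15 histone chaperone genes, 14 and 13 had a summit. DAXX, the chaperone of H3.3 at repeats, was at 0 in both lists, while ATRX, its partner, had 54 and 112. Of histone genes outside the rule, MACROH2A1 had 34 and 36 summits, MACROH2A2 7 and 11, CENPA, the centromeric H3, 2 and 6, and H3-7 was at 0. These genes are mostly far longer than the histone genes, and 68.3% and 69.8% of all protein-coding genes had a summit.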

How the data were processed

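The authors deposited 1 peak list per library for RPL22-HaloTag and RPL22L1-HaloTag; groups follow the genotype label. Each list gives position, a whole-number score set by the authors (lowest 13, scale not stated) and the other measure used, the summit's distance from the peak start. Per the submitters' processing notes, cutadapt 4.8, STAR 2.7.10a, UMI-tools 1.1.5, MACS3 3.0.0a6 and hg38 were named, without role or order; the control, cutoff, strand and handling of multiply aligned reads are not given in the sources used here.

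Genes, bounds and strand came from RefSeq tables of GRCh38, strand from promoter windows (82 of 91 members). A summit counted for every member containing it; peak shares used the shorter. Members, lists and classes were chosen with earlier results of these data known. Full values go to the 10 members with the highest-scoring peak per list, members with overlapping peaks and members with at least 3 summits in a list, described fully or by counts and ranges. Alternatives varied peaks, overlap, gene assignment and members. Values of 1 member are not reported here, though it stays in the totals. Counting code was tested on simulated data. Python 3.11.15, pandas 2.3.3, numpy 2.4.6, scipy 1.17.1 and matplotlib 3.10.9 were used.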

Additional observations from a re-analysis of the deposited data

How the results depend on the processing

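Values came from 1 library per fusion and read depth is unknown, so neither replicate error nor detection limits can be given. No paired analysis was possible because each group has 1 library. Of 72 alternatives to the main results, 54 stayed and 18 moved, 7 up and 11 down, and none reversed. Some stayed by construction (the RPL22 list is unchanged by equal list sizes). A share stayed if it fell within the limits of the main share. The rule for counts, which have no limits, used their size relative to the main count. Against 35 genes with a summit in the RPL22 list, 24 among members that overlap no other gene stayed. The 21 among members under 1000 bases moved. Requiring at least 2 summits left 18 and 27 genes in the RPL22 and RPL22L1 lists. Members under 1000 bases gave 21 and 28 genes, 35 and 45 summits, 33.3% of RPL22L1 summits at the 3′ end and 44.4% of RPL22L1 peaks in the top 10% of scores. RPL22L1 summits numbered 73 at or above the median score, 80 without flat peaks and 77 at equal list sizes, and 31.5% of those at or above the median overlapped. Without flat peaks, and with ranks taken anew, 34.9% and 18.8% were in the top 10%. Counting each gene once by its best peak gave 70.6% and 64.4% there, and 44% and 35.3% at the 3′ end. That setting selects high scores by construction, and other genes were not counted in the same way. Of 32 alternatives for the classes, all of them counts, 26 stayed by the rule for counts and 6 moved down. Replication-dependent genes with at least 2 summits numbered 12 and 20. Variants that overlap no other gene numbered 4 and 5, and variants under 1000 bases 0 in both lists. Windows of 30 and 100 bases and the other settings of the 3′ end share were added after the data were seen.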
